A study of Homo sapiens with 4 samples.

Results

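The promoter and transcribed part of the ribosomal DNA (rDNA) repeat held 1986 CpGs, out of 3253 CpGs on the contig that represents rDNA in the mapping genome. They were chosen by position alone, as the CpGs at contig positions 1 to 13350, which start at the transcription start, and 41900 to 42999, the last 1100 bases before the start in the repeat closed to a circle. The remaining 1267 CpGs of the contig belong to the intergenic spacer. Methylation came from enzymatic methyl sequencing (EM-seq), which converts cytosines that carry no methyl group, so that T marks an unmethylated and C a methylated base. Libraries were made from HEK293T, a human embryonic kidney line, either wild type (WT) or with the zinc finger gene ZNF274 deleted by CRISPR-Cas9 (ZNF274KO), with 2 libraries per group. The deletion used a guide on each side of the gene and cells were sorted singly afterwards. Whether the 2 libraries of a group come from separate clones or cultures is not given in the sources used here, so p-values measure only the spread between these libraries, which may be technical.

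Each rDNA repeat is transcribed by RNA polymerase I into a single precursor, from which the 18S, 5.8S and 28S rRNAs are cut. The external transcribed spacers (5'ETS and 3'ETS) and the internal ones (ITS1 and ITS2) are removed during this processing. The promoter has an upstream control element and a core element, bound by UBF and by the SL1 complex. A cell carries many copies of the repeat, of which some are active and others silent, and promoter methylation is a known mark of the silent copies. A level measured on the contig is therefore an average over all copies whose reads were placed there.

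The positions of the rRNA genes were taken from the RefSeq annotation of the unplaced scaffold GL000220.1 of GRCh37 and carried to the contig through the CpGs. Of the 1986 CpGs, 1892 (95.3%) had a partner with the same flanking bases, at most 43 bases away from the same distance to the start. On the contig, the 5'ETS covered positions 1 to 3656 (600 CpGs), 18S 3657 to 5527 (153), ITS1 5528 to 6622 (188) and 5.8S 6623 to 6779 (17). ITS2 covered positions 6780 to 7934 (222 CpGs), 28S 7935 to 12969 (597) and the 3'ETS 12970 to 13350 (69), and the promoter held 140 CpGs. CpGs were densest in ITS2, with 5.2 bases per CpG, and sparsest in 18S, with 12.2, against 22.5 in the intergenic spacer.

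The reference sequences of 2 stretches on which the results turn are given here 5′ to 3′ on the plus strand, with each CpG in capitals. The first runs from position -160 to +20 around the start and contains the upstream control element (-160 to -100) and the core element (-50 to +20). The second lies in 28S, in the only tile that passed the test, and holds the 3 CpGs with the largest negative differences among those with at least 100 reads per library and no overlap of the groups. In the promoter stretch 22 of 24 reference CpGs had a partner on the contig, with numbering that differs by up to 8 bases, and in the 28S stretch 17 of 18 had one. The letters are those of the reference, and the letters of the contig were not used.
Promoter, GL000220.1:105264-105443 (GRCh37): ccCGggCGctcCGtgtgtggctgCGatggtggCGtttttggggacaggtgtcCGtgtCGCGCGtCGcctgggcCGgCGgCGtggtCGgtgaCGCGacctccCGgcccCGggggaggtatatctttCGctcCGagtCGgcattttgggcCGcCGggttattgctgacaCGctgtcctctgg
28S, GL000220.1:116855-116936 (GRCh37): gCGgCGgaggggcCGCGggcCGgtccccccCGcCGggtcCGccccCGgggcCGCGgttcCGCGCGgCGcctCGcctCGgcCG

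The libraries held between 241598512 and 295114493 reads over 27710999 CpGs on autosomes and X, and a read counts once at each CpG it covers. Mean depth on autosomes was 8.77 to 10.7 reads per CpG, while median depth on the rDNA contig was 431 to 585. The body of ZNF274, on chromosome 19 from 58694396 to 58724928 (GRCh37), carried 5158 reads over CpGs in WT 1 and 4274 in WT 2, 0 in ZNF274KO 1 and 14 in ZNF274KO 2. The level over the autosomes and X was 59.3% and 60.4% in WT 1 and WT 2, and 60.2% and 58.4% in ZNF274KO 1 and ZNF274KO 2. The files list 2 further contigs, named L and P, whose identity the sources used here do not give. Their levels were 0.19% to 0.277% and 93.1% to 94.2%.

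The transcribed part and the promoter were methylated at about the same intermediate level, far below the intergenic spacer, and the level dropped in the CpG-dense spacers of the precursor. The mCG level, which is methylated reads in percent of all reads at CpGs, was 26.7% in WT 1 and 28.5% in WT 2 over the promoter and transcribed part together. It was 57% and 56.1% in the intergenic spacer of the same libraries. No CpG of the 1401 with at least 100 reads in every library had a mean WT level over 50%, while 601 of 1102 in the intergenic spacer did. Only 6 of the 1401 lay under 5%, of which 2 were in ITS1, 3 in ITS2 and 1 in 28S. The one in 28S, at contig position 12387, was read as unmethylated almost throughout, at 0.13% of 767 reads in WT 1 and 0.183% of 546 in ZNF274KO 2.

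In WT the rRNA coding parts lay above the spacers between them. Mean WT levels were 32.8% ± 2.42 in 5.8S, 30% ± 1.47 in 18S and 29.9% ± 1.47 in 28S (SD, n = 2). The level of 5.8S was above that of 18S and of 28S in each of the 4 libraries. The 5'ETS, which precedes 18S, had 27.9% ± 1.61. The promoter had 30.4% ± 1.12 and the 3'ETS 26.4% ± 1.44. ITS1 and ITS2, the spacers on either side of 5.8S, were lowest at 19.9% ± 0.47 and 20.9% ± 0.145. The gap between all transcribed spacers and all coding parts was -5.03 points in WT 1 and -5.95 points in WT 2.

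ZNF274KO libraries were lower than WT libraries over the whole promoter and transcribed part. The level was 21.4% in ZNF274KO 1 and 25.3% in ZNF274KO 2, against the 26.7% and 28.5% of WT. The mean difference was -4.24 points (23.3% ± 2.76 against 27.6% ± 1.23, SD, n = 2), and the groups did not overlap (exact permutation test, two-sided, p = 0.333, which is the lowest value possible with 2 against 2 libraries). The permutation test cannot reach 0.05 with this number of libraries. Most of the difference came from ZNF274KO 1, which lay -6.19 points from the WT mean, while ZNF274KO 2 lay at -2.28 points. WT 2 exceeded WT 1 by 1.74 points.

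The coding parts were lower in both knockout libraries. Their level was 29% in WT 1 and 31.1% in WT 2, against 26% in ZNF274KO 1 and 26.9% in ZNF274KO 2. The groups did not overlap, and the difference was -3.64 points (exact permutation test, p = 0.333). Each knockout library lay further from the WT mean than WT 2 lay from WT 1 (2.12 points), at -4.12 points for ZNF274KO 1 and -3.16 points for ZNF274KO 2. The level over the autosomes and X was also lowest in ZNF274KO 2, at 58.4%, and it was 60.2% in ZNF274KO 1. After centring on the genome the difference of the coding parts was -3.1 points (exact permutation test, p = 0.333).

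In all 3 rRNA genes both knockout libraries lay below both WT libraries. In 18S, the RNA of the small subunit, the levels were 29% and 31.1% in WT 1 and WT 2, and 27.5% and 26.5% in ZNF274KO 1 and ZNF274KO 2. In 5.8S, which joins the large subunit, they were 31.1% and 34.5% in WT, and 30.4% and 30.2% in ZNF274KO. In 28S, the main RNA of the large subunit, they were 28.9% and 31% in WT, and 25% and 26.9% in ZNF274KO. The differences of the group means were -3.06 points in 18S, -2.54 points in 5.8S and -4 points in 28S (exact permutation test, p = 0.333 each). In 5.8S, with 17 CpGs, the WT libraries differed from each other by 3.42 points, more than the group means did. The 3 genes lie in the same repeats and were read in the same libraries, so they are not independent of each other.

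The transcribed spacers behaved differently in the 2 knockout libraries. Their level was 24% in WT 1 and 25.2% in WT 2, against 15.2% in ZNF274KO 1 and 23.2% in ZNF274KO 2. ZNF274KO 1 was far below the other 3 libraries, and ZNF274KO 2 lay just under WT 1. The difference of -5.36 points (19.2% ± 5.67 against 24.6% ± 0.851, SD, n = 2) was smaller than the spread of the knockout libraries, which differed by 8.02 points (exact permutation test, p = 0.333). Without ZNF274KO 1 it was -1.35 points, and the groups overlapped with unweighted means over CpGs (-4.2 points, p = 1), after centring on the genome (-4.82 points, p = 1), on Watson reads (-5.25 points, p = 0.667) and for the 75th percentile (-5.53 points, p = 0.667; exact permutation tests).

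The single spacers repeated this. The 5'ETS, the leader of the precursor, had levels of 26.7% and 29% in WT 1 and WT 2, 18.4% in ZNF274KO 1 and 25.8% in ZNF274KO 2. ITS1, between 18S and 5.8S, had 20.2% and 19.5% in WT, 11.7% in ZNF274KO 1 and 18.8% in ZNF274KO 2. ITS2, between 5.8S and 28S, had 20.8% and 21% in WT, 10.3% in ZNF274KO 1 and 21% in ZNF274KO 2. The groups did not overlap in the 5'ETS (-5.76 points) and in ITS1 (-4.66 points), and they overlapped in ITS2 (-5.21 points; exact permutation tests, p = 0.333, 0.333 and 1). The 3'ETS, which ends the precursor, was covered by only 26.7 to 53.3 reads per CpG. Its level was 25.3% and 27.4% in WT, 17.5% in ZNF274KO 1 and 39.7% in ZNF274KO 2, so the knockout libraries lay on opposite sides of WT.

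**Figure D1:**
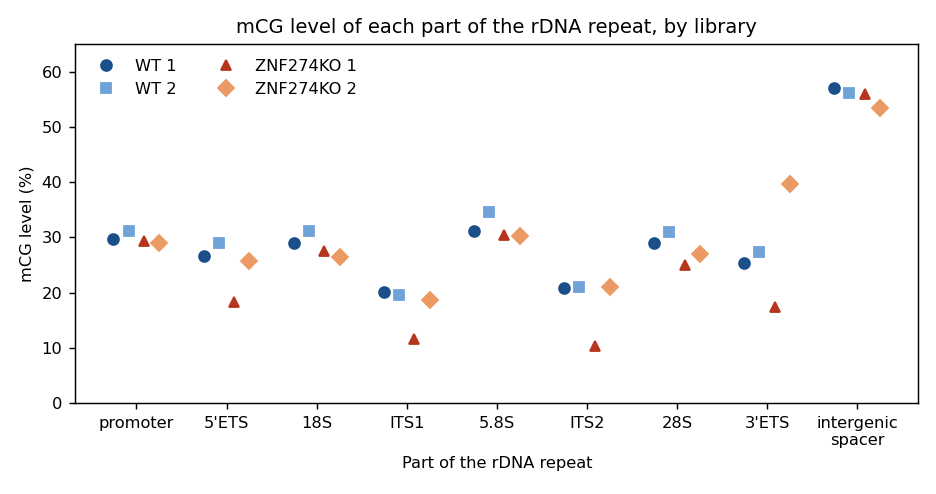
The mCG level in percent (vertical axis) is plotted for each part of the rDNA repeat (horizontal axis), with a symbol for each of the 4 libraries. ZNF274KO 1 stands below the other libraries in the 4 transcribed spacers, at 10.3% in ITS2 against 20.8% to 21%, while the 2 knockout libraries lie close together in the promoter, 18S, 5.8S and 28S.

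Read depth moved with these levels in ZNF274KO 1. The depth of the transcribed spacers relative to the mean of the autosomes was 37.7 in WT 1 and 34.6 in WT 2, against 28.3 in ZNF274KO 1 and 36.1 in ZNF274KO 2. For the whole contig, which reflects the number of repeat copies and how well their reads were recovered, the relative depth was 53.9 and 51 in WT, and 44.8 and 49.2 in ZNF274KO. The difference of the contig was -5.46 (47 ± 3.17 against 52.5 ± 2.04, SD, n = 2; exact permutation test, p = 0.333). It was -3.22 without ZNF274KO 1, and the groups overlapped with median depth (-4.1, p = 0.667) or with chromosome 1 as the reference (-4.29, p = 0.667; exact permutation tests). Fewer copies and fewer reads per copy cannot be told apart in these counts. The part of depth in the methylation differences was not tested.

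The intergenic spacer of the same repeats was also lower in both knockout libraries, with a difference of -1.98 points (exact permutation test, p = 0.333). Its level was 57% in WT 1 and 56.1% in WT 2, against 55.9% in ZNF274KO 1 and 53.4% in ZNF274KO 2. Here ZNF274KO 2 was the lower library, while in the transcribed spacers it was ZNF274KO 1. Subtracting the intergenic spacer from the promoter and transcribed part within each library gave -30.4 and -27.7 points in WT, and -34.5 and -28.1 points in ZNF274KO. The difference of -2.26 points did not exceed the spread (exact permutation test, p = 0.667), and it turned to 0.948 points without ZNF274KO 1. For the coding parts alone the difference from the intergenic spacer was -1.66 points (exact permutation test, p = 0.667), and the groups overlapped. The permutation test cannot go below p = 0.333 here. These 4 libraries therefore cannot decide whether the promoter and transcribed part differed beyond the rest of the repeat.

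Tiles of 500 bases showed where along the precursor the libraries parted. Of 27 tiles in the transcribed part, 18 had both ZNF274KO libraries below both WT libraries and 0 had both above. With the promoter this made 19 of 30 tiles below and 1 above. Over all 282682 tiles tested, which are 10 kb long on the autosomes and X and 500 bases long on rDNA, both knockout libraries lay below in 24.2% and above in 12.1%. Neighbouring tiles come from the same repeats and are not independent replicates, and tiles of the genome have far fewer reads per CpG, so the shares differ in depth too. ZNF274KO 1 had the lowest level of the 4 libraries in 21 of the 27 transcribed tiles and lay under the WT mean in all 27. ZNF274KO 2 lay under the WT mean in 20 of them.

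In WT the level varied in steps along the precursor. Within the 5'ETS the mean of WT was 32.4% in the first tile (1 to 500) and 31.8% at 1001 to 1500, and it was 14.8% at 3001 to 3500, the lowest tile. The next tile, which crosses into 18S, was at 29.9%. The other lowest tiles lay across the end of ITS2 and the start of 28S (7501 to 8000, 17.9%) and across the end of 18S and ITS1 (5501 to 6000, 19.1%). The highest were the 28S tile at 8001 to 8500 (35.8%), the last 100 bases of the promoter (35.2%) and the 28S tile at 11001 to 11500 (34.8%).

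In the 3 tiles with the lowest WT level the knockout libraries lay far apart. At 3001 to 3500, in the 5'ETS, the levels were 14.3% and 15.3% in WT 1 and WT 2, 7.15% in ZNF274KO 1 and 18.6% in ZNF274KO 2. At 7501 to 8000 they were 18.2% and 17.7% in WT, 6.51% in ZNF274KO 1 and 19.2% in ZNF274KO 2. At 5501 to 6000 they were 20.3% and 17.9% in WT, 7.87% in ZNF274KO 1 and 18.4% in ZNF274KO 2. In each of the 3 tiles ZNF274KO 1 was far below the other 3 libraries, and the groups overlapped.

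**Figure D2:**
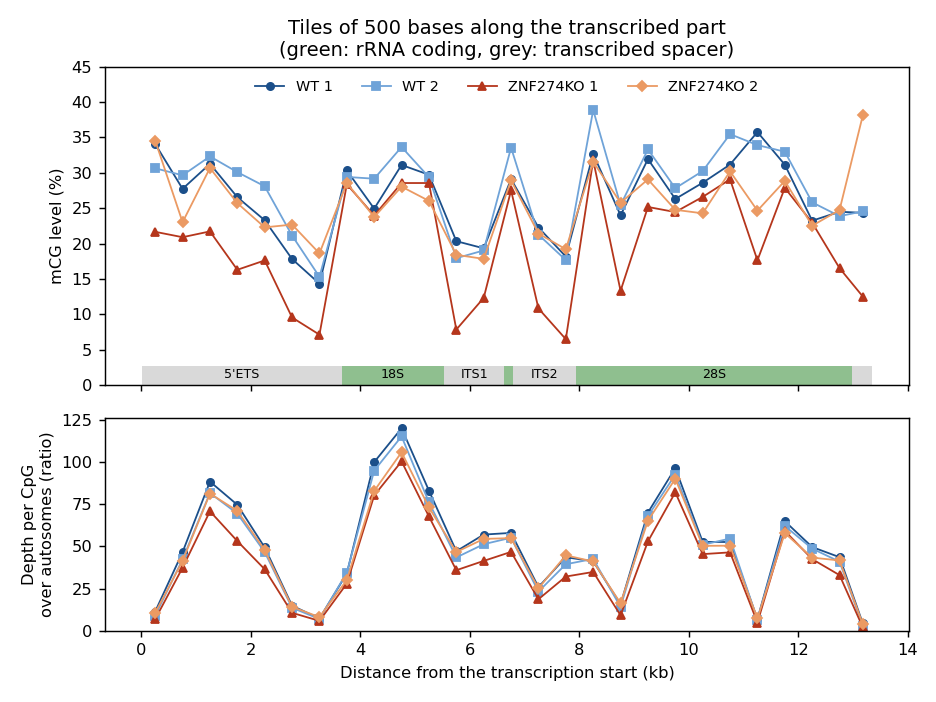
The upper panel plots the mCG level in percent and the lower panel the depth per CpG relative to the mean of the autosomes, for 27 tiles of 500 bases against their distance from the transcription start in kb, with a line for each library. ZNF274KO 1 drops below the other libraries in the spacers (grey) and in most tiles of 28S, in some of them by little. It meets ZNF274KO 2 in 18S (green), where both lie below the WT libraries. Relative depth ranges from 2.04 to 120 over tiles and libraries.

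The distance of ZNF274KO 1 from WT grew with the number of CpGs in a tile. Across the 27 transcribed tiles, CpGs per 100 bases and the difference of ZNF274KO 1 from the WT mean had a Spearman coefficient of -0.754, while for ZNF274KO 2 it was 0.521 and for WT 2 minus WT 1 it was -0.427. The tiles share libraries, repeats and base composition, so these coefficients describe the profile and carry no p. In the 14 tiles with 14 or more CpGs per 100 bases, a limit chosen after the values were seen, ZNF274KO 1 lay at a median of -10.8 points from the WT mean (-17.2 to -6.85) and ZNF274KO 2 at -0.54 points (-10.2 to 13.7). In the 13 sparser tiles the medians were -3.81 points and -3.1 points. Both knockout libraries lay below both WT libraries in 12 of these 13 tiles and in 6 of the 14 denser ones, against 24.2% of all tiles tested. CpGs per 100 bases also went with a lower WT level (Spearman coefficient -0.587) and a lower relative depth of WT 1 (-0.6255).

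Relative depth followed the same axis. The depth of ZNF274KO 1 was 0.851 times the WT mean at the median of the sparser tiles and 0.76 times at the median of the denser ones, after division by each library's autosomes. Its Spearman coefficient with CpGs per 100 bases was -0.692, and for ZNF274KO 2 it was 0.865. In the 28S tile at 11001 to 11500, named for its level, relative depth was 6.9 and 6.67 in WT. It was 4.86 in ZNF274KO 1 and 7.28 in ZNF274KO 2, whose levels lay -17.2 and -10.2 points from the WT mean. The coefficient between the relative depth of ZNF274KO 1 and its distance in level from WT was 0.746 over the 27 tiles. Its part in the result was not tested.

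**Figure D3:**
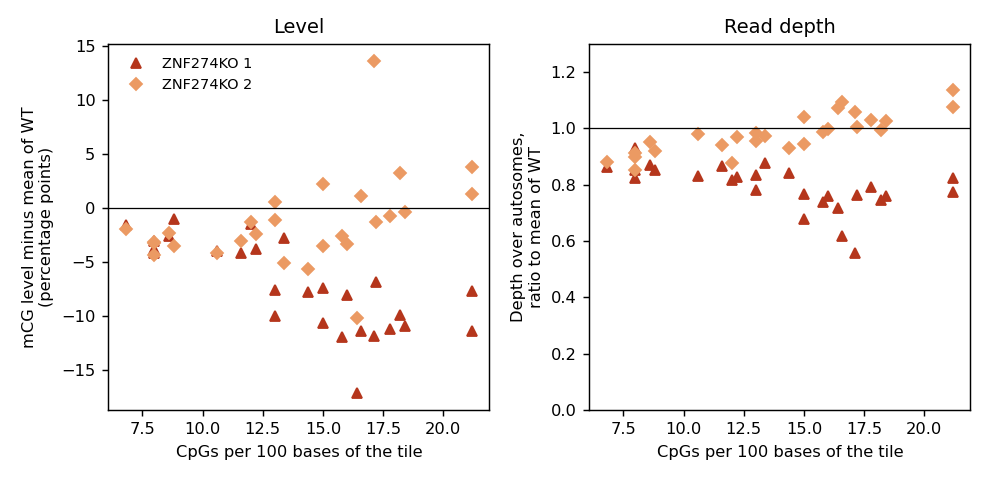
For 27 transcribed tiles, the left panel plots the mCG level of each knockout library minus the mean of WT in percentage points, and the right panel its depth relative to autosomes as a ratio to the mean of WT, both against CpGs per 100 bases of the tile. The 2 knockout libraries have similar medians in sparse tiles, -3.81 and -3.1 points, although single sparse tiles part, and differ in dense ones, where ZNF274KO 1 lies between -17.2 and -6.85 points.

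The test of each tile, fitted with edgeR over all 282682 tiles, called 1 of the 30 tiles, and it was lower in ZNF274KO (adjusted p under 0.05). In this fit the spread between libraries expected of a tile is drawn largely from all tiles together. Of these, 282601 are 10 kb tiles of the genome. Over all tiles 0.519% were called in either direction and 0.0106% were called lower. At an unadjusted p under 0.05, 6 of the 30 tiles passed, all of them lower, against 6.58% of all tiles in either direction. When the tiles of the contig were fitted alone, 0 were called and 2 of the 30 had an unadjusted p under 0.05. Among the 51 tiles of the intergenic spacer 0 were called.

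The called tile lay in 28S, at 11001 to 11500. Its level was 35.8% in WT 1 and 33.9% in WT 2, against 17.7% in ZNF274KO 1 and 24.7% in ZNF274KO 2. Both knockout libraries were well below both WT libraries, and further from WT than in any other tile of the transcribed part by their mean. The log2 odds of methylation differed by -1 (SE 0.184, edgeR adjusted p = 0.0246). With the contig fitted alone they differed by -1.01 and the tile was not called (edgeR adjusted p = 0.389). Relative depth in this tile was among the lowest of the transcribed part, at 6.9 and 6.67 in WT, 4.86 in ZNF274KO 1 and 7.28 in ZNF274KO 2. The call was not made with limma (log2 odds -1.01, adjusted p = 0.471), after centring each library on the genome (-0.97, adjusted p = 0.0671) or without ZNF274KO 1 (-0.71, adjusted p = 0.151).

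Reads were spread unevenly within this tile. Of its 82 CpGs, 33 had at least 20 reads in every library, and they lie in its last 188 bases, in the stretch printed above and just before it. Of these 33, 29 had both ZNF274KO libraries below both WT libraries and 0 had both above, against 39.9% below among the 3022 CpGs of the contig with the same minimum. The count restates the call of the tile. The median level over the 33 was 35.3% and 34.9% in WT, 9.52% in ZNF274KO 1 and 25.4% in ZNF274KO 2. Reads of the Crick strand gave levels above those of the Watson strand by 26.3 and 23.5 points in WT, 7.4 in ZNF274KO 1 and 29.1 in ZNF274KO 2. The 2 strands of the tile thus disagreed within each library by more than the groups differed in 3 of 4 libraries. With the contig fitted alone, the log2 odds of the tile were -1.03 on Watson reads and -1.08 on Crick reads. The tile was called on neither strand (edgeR adjusted p = 0.425 and 0.599).

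The 3 CpGs with the largest negative differences among CpGs whose groups did not overlap and that had 100 or more reads in each library were all in the 28S stretch printed above, as its CpGs at bases 21, 54 and 62. At base 21 (contig position 11442) the level was 32.3% of 164 reads in WT 1 (95% exact binomial interval 25.2 to 40) and 40.1% of 137 in WT 2 (31.9 to 48.9), against 8.82% of 102 in ZNF274KO 1 (4.11 to 16.1) and 25.8% of 132 in ZNF274KO 2 (18.5 to 34.1). The mean difference was -18.9 points there, -16.6 points at base 54 and -17.2 points at base 62. Intervals cover counting error only, and these CpGs share reads. They were ranked by the difference itself and are given as a description.

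**Figure D4:**
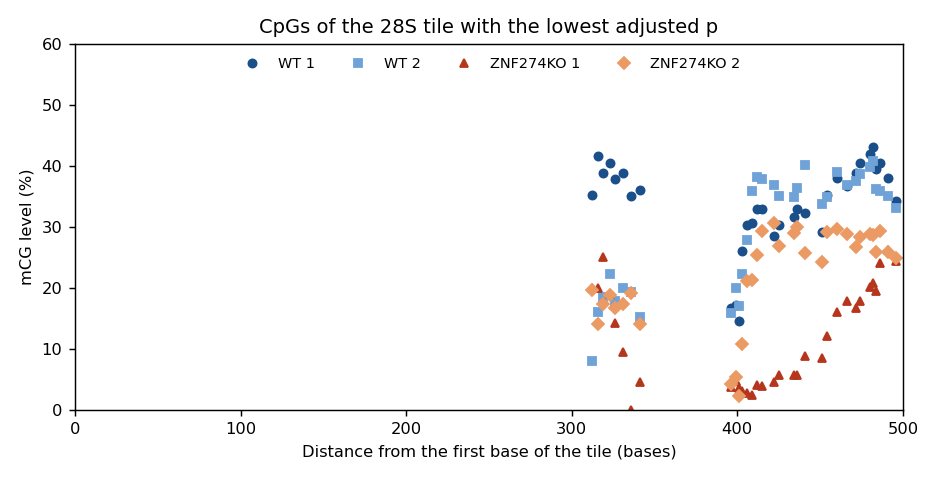
The mCG level in percent is plotted for the 33 CpGs of the called 28S tile with at least 20 reads in every library, against the distance from the first base of the tile, with a symbol for each library. ZNF274KO 1 is lowest over most of the later part of the tile and approaches ZNF274KO 2 at the end of the tile, where depth is highest.

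The other tiles with large negative differences lay in the 5'ETS and were not called. At 1501 to 2000 the levels were 26.6% and 30.1% in WT 1 and WT 2, 16.3% in ZNF274KO 1 and 25.7% in ZNF274KO 2 (log2 odds -0.60, SE 0.251, edgeR adjusted p = 0.712). The log2 odds of this tile were -0.19 without ZNF274KO 1 and -1.02 without ZNF274KO 2. At 501 to 1000 they were 27.7% and 29.6% in WT, 20.9% in ZNF274KO 1 and 23% in ZNF274KO 2 (log2 odds -0.52, SE 0.172, edgeR adjusted p = 0.505). The groups did not overlap in either tile. The 5'ETS tile at 501 to 1000 and the called 28S tile were the 2 tiles in which both knockout libraries lay over 5 points below the WT mean.

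Counted by single CpGs, the coding parts had the larger share with groups that did not overlap. Of the 1401 CpGs of the promoter and transcribed part with at least 100 reads in every library, 733 (52.3%) had both ZNF274KO libraries below both WT libraries and 4 had both above. Over all 2503 such CpGs of the contig the shares were 43.8% below and 2.16% above. By part, 370 of 603 in the coding parts, 334 of 720 in the transcribed spacers and 29 of 78 in the promoter lay below, against 364 of 1102 in the intergenic spacer. Above lay 2 in the coding parts, 0 in the transcribed spacers, 2 in the promoter and 50 in the intergenic spacer. All 78 promoter CpGs counted lay upstream of position -160. No CpG in or between the windows of the upstream control element and the core element had enough reads to be counted. Neighbouring CpGs share reads, so these counts are no independent tests.

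The rRNA genes and the 5'ETS led this count. The share below was 65.8% in 18S (100 of 152), 60.1% in the 5'ETS (206 of 343), 59.9% in 28S (260 of 434) and 58.8% in 5.8S (10 of 17). It was 37.2% in ITS1 (70 of 188) and 31.2% in ITS2 (58 of 186). In ITS1 and ITS2 ZNF274KO 2 lay at -1.11 and 0.133 points from the WT mean. The median difference over CpGs from the WT mean was -4.04 points for ZNF274KO 1 and -3.02 points for ZNF274KO 2 in the coding parts. In the transcribed spacers it was -9.7 points and -0.919 points.

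The largest positive differences among such CpGs were small. At promoter position -867 the level was 23.1% and 27.7% in WT 1 and WT 2, and 29.4% and 28.8% in ZNF274KO 1 and ZNF274KO 2, a difference of 3.66 points. The next were a CpG of 18S at contig position 4280 (2.34 points) and a CpG of 28S at 12333 (1.3 points).

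The promoter as a whole hardly differed between the groups, but its pooled level mostly reflects the bases far upstream of the start. In WT 1, 35697 of its 43350 reads lay in the first 500 bases (41900 to 42399). The upstream control element window had 351. The promoter level was 29.6% in WT 1 and 31.2% in WT 2, against 29.4% in ZNF274KO 1 and 29.1% in ZNF274KO 2. The difference was -1.2 points (29.2% ± 0.237 against 30.4% ± 1.12, SD, n = 2; exact permutation test, p = 0.333), smaller than the gap of 1.59 points between the WT libraries. It was -2.26 points with Watson reads only, and it turned positive with Crick reads only (0.0932 points) and for the 75th percentile of CpGs (0.788 points, with the groups apart). ZNF274KO 1 lay -1.03 points from the WT mean here, against -9.36 points in the transcribed spacers. Promoter minus transcribed part was 3.08 and 2.92 points in WT, 8.45 in ZNF274KO 1 and 3.98 in ZNF274KO 2 (difference 3.21 points, exact permutation test, p = 0.333).

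None of the 3 promoter tiles was called, and their differences had both signs. The 62 CpGs of the first 500 bases (41900 to 42399) had 28.5% and 30.8% in WT, and 29.2% and 28.8% in ZNF274KO, with overlapping groups. The next 500 bases had 34.7% and 33.3% in WT, and 29.4% in both knockout libraries (log2 odds -0.31, SE 0.138, edgeR adjusted p = 0.751). The last 100 bases before the start had 36.9% and 33.5% in WT, and 40.6% and 40.4% in ZNF274KO (log2 odds 0.32, SE 0.215, edgeR adjusted p = 0.865). With the contig fitted alone, the log2 odds of these 100 bases were 0.08 on Watson reads and 0.57 on Crick reads. This was the only tile with both knockout libraries above both WT libraries, and it had 38.6 to 54.9 reads per CpG.

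In both control elements the knockout libraries lay above the WT libraries. Over the 8 CpGs of the upstream control element window the level was 37% of 351 reads in WT 1 and 33% of 294 in WT 2, against 40.2% of 276 in ZNF274KO 1 and 41.6% of 214 in ZNF274KO 2. Over the 6 CpGs of the core element window it was 36.2% of 185 reads, 33.7% of 166, 39.3% of 145 and 40.3% of 129. The 9 CpGs between the windows had 37.6% and 33.3% in WT, and 41% and 40.6% in ZNF274KO. The differences were 5.89, 4.83 and 5.33 points (exact permutation test, p = 0.333 each). On single strands the groups stayed apart in the upstream control element window, narrowly on Watson reads, but overlapped in the core window. In the upstream control element window Watson reads gave 38.6% and 35.6% in WT, and 39.1% and 43.45% in ZNF274KO. Crick reads gave 35.4% and 25% in WT, and 42.9% and 37.7% in ZNF274KO. The Crick share in that window ran from 49.9% of 351 reads in WT 1 to 24.5% of 294 in WT 2. In the core window Watson reads gave 46.3% and 39% in WT, and 38.2% and 46.6% in ZNF274KO, and Crick reads gave 28.2% and 25.8% in WT, and 40.6% and 26.8% in ZNF274KO. The Crick share of the reads there ran from 55.7% in WT 1 to 31.8% in ZNF274KO 2. Between the windows Watson reads overlapped too, at 43.7% and 35.7% in WT, and 39.6% and 42.9% in ZNF274KO. The 3 stretches share reads and are not independent of each other.

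The counts behind the control elements were small. At position -101, the last CpG of the upstream control element window, 27 of 62 reads were methylated in WT 1 (43.5%, 95% exact binomial interval 31 to 56.7) and 18 of 47 in WT 2 (38.3%, 24.5 to 53.6), against 19 of 41 in ZNF274KO 1 (46.3%, 30.7 to 62.6) and 20 of 41 in ZNF274KO 2 (48.8%, 32.9 to 64.9). The intervals of the 4 libraries overlap throughout. At position -116 the libraries did not follow their groups, with 7.89% of 38 reads and 22.6% of 31 in WT, and 38.7% of 31 and 11.1% of 18 in ZNF274KO. Toward the contig end depth fell to 17, 14, 10 and 8 reads at position -13, and the CpG at +8 had 4, 1, 3 and 3 reads.

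**Figure D5:**
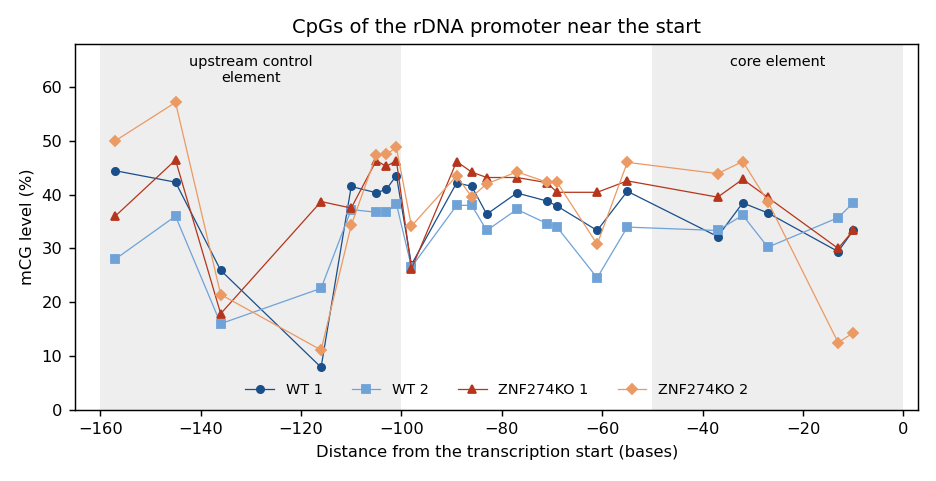
The mCG level in percent of each CpG from -160 to the start is plotted against its distance from the transcription start in bases, with a line for each library and the 2 element windows shaded. From -105 to -27 the knockout libraries mostly lie above the WT libraries, at 30.8% to 48.8% apart from the CpG at -98, while at the CpGs outside this stretch, with 7 to 53 reads per CpG, the order is mixed.

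The 2 strands were counted separately in the files and disagreed in the spacers. In the 5'ETS Watson reads gave 22.1% and 25.1% in WT and Crick reads 30.5% and 32.1%. In ZNF274KO 1 they gave 13.6% and 22.5%, and in ZNF274KO 2 22.9% and 28.3%. In ITS1 the order was the opposite, with 22.1% on Watson and 18.5% on Crick in WT 1. In the coding parts the strands gave 28.9% and 29.1% in WT 1, and 25% and 27% in ZNF274KO 1. ZNF274KO 1 was the lowest library in the transcribed spacers on each strand, at 11.7% on Watson against 21.1% to 22.9%, and at 18.7% on Crick against 24.7% to 27.3%.

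The bases next to a CpG made little difference. Over the transcribed CpGs with 100 or more reads in each library, the difference between the groups was -3.85 points where A preceded the CpG, -4.52 for C, -4.7 for G and -4.37 for T. By the base that followed it was -4 points for A, -4.78 for C, -4.52 for G and -4.32 for T.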

How the data were processed

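Groups and replicate numbers of the 4 EM-seq libraries, 2 WT and 2 ZNF274KO, came from the sample titles. The authors ran Msuite2 with HISAT2 as mapper against hg19 plus an rDNA contig, and deposited whole-number read counts of C and T per CpG and strand, not normalized and not pooled. Filters on duplicates and mapping quality are not given in the sources used here. The rDNA copies whose reads were placed on the contig share it, so levels are averages over those copies. Whether rDNA reads were placed elsewhere in the genome was not tested. Duplicated or misplaced reads make counting intervals too narrow. CpG positions are those of the contig, 1-based.

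The level is methylated reads over all reads, summed over both strands and all CpGs of a region, per library. Relative depth is the mean reads per CpG over that of the autosomes, with median depth and chromosome 1 as alternatives. Region levels and relative depth were compared by two-sided exact permutation over libraries, with SDs over 2 libraries. Tiles with at least 20 reads and 5 CpGs in every library, 500 bases on rDNA and 10 kb on the autosomes and X, were tested together in edgeR 4.0.16 (R 4.3.3) by quasi-likelihood on methylated and unmethylated counts, with a coefficient per library and Benjamini-Hochberg adjustment at 0.05. The count model was tested on simulated data. rRNA gene ends were carried from RefSeq on GL000220.1 through chained CpGs with equal flanking bases (a change of offset cost 3 matches). The RefSeq table is that of GRCh38.p14, in which this scaffold has the same accession and version. Tiles were cut at the borders of the promoter and transcribed part.

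Named were the 8 parts, the 2 element windows with their CpGs, the 3 tiles with the highest and lowest WT level and with the largest changes each way, and the 3 single CpGs each way with at least 100 reads and no overlap. Members, lists and rules were chosen with earlier results of these data known. Alternatives were a minimum of 100 reads per CpG, each strand alone, unweighted means, the 75th percentile, CpGs of outlying depth left out (under 0.5 or over 2 times the median), centring on the genome, 50 reads per tile, tiles of 250 and 1000 bases, the contig alone, limma 3.58.1 with a pseudocount of 1, a replicate block, and each library left out. Intervals of single CpGs are exact binomial at 95%. Other software was pandas 2.3.3, numpy 2.4.6, scipy 1.17.1 and matplotlib 3.10.9 in Python 3.11.15.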

Additional observations from a re-analysis of the deposited data

How the results depend on the processing

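The level differences of the promoter and transcribed part, the transcribed spacers and the coding parts stayed negative under every alternative, although the groups of the transcribed spacers overlapped on Watson reads, for unweighted means and the 75th percentile, and after centring. Without single libraries they ranged from -6.19 to -2.28 points, -9.36 to -1.35 points and -4.7 to -2.58 points. The promoter difference turned positive with Crick reads only (0.0932 points) and with the 75th percentile of CpGs (0.788 points), and ranged from -1.99 to -0.406 points without single libraries. The difference from the intergenic spacer ranged from -5.47 to 0.948 points, and that of promoter minus transcribed part from 0.979 to 5.45 points. The permutation test of a region cannot pass 0.05 with 2 libraries a group, so unchanged calls say nothing about stability.

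The count of called tiles was 0 with the contig fitted alone (with both strands or either), with tiles of 1000 bases, after centring and with limma (also on the contig alone). Without single libraries it ranged from 1 to 9 (9 without ZNF274KO 2, all lower). Without ZNF274KO 1 the 1 call was another tile, the 3'ETS tile at 13001 to 13350, which was higher in ZNF274KO 2. In a fit of the contig alone, added after the data were seen, the range was 0 to 16, with 16 without ZNF274KO 2 and 0 without each other library. With a replicate block 4 tiles were called, and 0 in the contig alone. The replicate numbers share only a number: replicate differences of the 2 groups correlated at -0.0645 over the tiles of the genome and at -0.257 over the 30 tiles.

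Among named tiles, direction turned without ZNF274KO 1 at 3001 (log2 odds 0.39, also 0.39 alone) and 7501 (0.12, also 0.12 alone, with -1.65 at the other end without ZNF274KO 2). At 41900 it turned with Crick reads only in a fit of the contig alone (0.0095) and without WT 2 (0.034, also 0.034 alone, with -0.13 without WT 1). At 13001, where the log2 odds were 0.033, they were -0.082 with the contig alone, where Watson reads gave -0.38 and Crick reads -0.0247, -0.0525 with the replicate block (-0.11 alone) and -0.12 with limma (-0.12 alone). Without single libraries they ranged from -1.18 (without ZNF274KO 2) to 0.93 (without ZNF274KO 1), and with the contig alone they were -1.18 without ZNF274KO 2, -0.11 without WT 1 and -0.0913 without WT 2. The cause was not tested. Depth limits the 3'ETS, the element windows and the called tile.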
